A study of Homo sapiens with 4 samples.

Results

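The genes described here are 51 protein-coding genes of ribosome assembly and the nucleolus, chosen by name from the 60612 genes that both deposited tables list. All 51 names were found, each on a single row, and all 51 reached 1 FPKM or more in every library. FPKM divides the fragments of a gene by its transcript length and by the library's mapped total, so levels of different genes can be compared. The set was drawn up because CCDC137, the protein altered in this study, is annotated to the nucleus and nucleolus.

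The mRNA of 4 cultures was sequenced, with 1 library per group. Huh-7, a human hepatocellular carcinoma line, carried an empty vector or stably overexpressed CCDC137 from a lentiviral vector under puromycin selection. PLC/PRF/5, another such line, carried what the labels call a control vector, with no further detail, or a lentivirus with inactive Cas9 fused to a KRAB repressor and guided to CCDC137 for knockdown. Each line was thus a single stable culture per condition, and the lines also differed in culture medium, in the vector and in the treatment. No difference below has a replicate check, and no test between conditions could be run. Oligo(dT) selection captured polyadenylated RNA, so the ribosomal RNA that these proteins process was not measured.

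Below, pairs of levels within a line name the untreated library first and the treated library second. CCDC137 itself was at 11.9 and 229.0 FPKM in Huh-7, and at 20.5 and 0.771 FPKM in PLC/PRF/5. The 4 libraries held 11727 to 11903 genes at 1 FPKM or more. Of 9 hepatocyte genes, 9 reached 1 FPKM in Huh-7 and 8 in PLC/PRF/5, where ALB, the gene of serum albumin, was at 2.15 and 1.94 FPKM and TTR, the thyroxine carrier of plasma, at 0.298 and 0.260. Between the untreated libraries 7 of the 9 were lower in PLC/PRF/5 and 2 higher. The higher ones were SERPINA1, at 296 and 281 FPKM in Huh-7 and 589 and 484 in PLC/PRF/5, and APOB, at 373 and 436, and 383 and 388. Fibroblast markers at 1 FPKM numbered 1 of 6 in Huh-7 (LUM, at 28.7 and 22.8 FPKM) and 0 in PLC/PRF/5. Blood or endothelial markers numbered 2 of 7 (CD14, at 4.59 and 4.81 FPKM, and PECAM1, at 2.28 and 2.66) and 0.

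Ribosomes are built in the nucleolus. RNA polymerase I transcribes a long precursor there, small nucleolar RNPs guide its chemical modification, and assembly factors fold, cut and pair it with ribosomal proteins into a small and a large subunit. Growing and dividing cells spend much of their transcription on this pathway, and the transcription factor MYC is its best known activator. Tumour cells often show enlarged nucleoli.

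MYC binds the E-box, whose core form has the letters CACGTG and reads the same on both strands. A search for these letters was made in the promoter windows of RefSeq (GRCh38.p14), which span 250 bases before to 50 bases after a start site. Windows were given for 43 of the 51 genes, and none for BOP1, NOLC1, RRP12, DDX18, RRS1, NOP58, RRP1B and TCOF1. Of these 43 genes, 20 (46.5%) held the letters, against 12.6% of 9583 genes that reached 1 FPKM in any library and 8.77% of all 27305 genes with a window. Counted over windows, it was 21 of 52 (40.4%), beside 7.26% of all windows. The matches lay after a listed start site in 14 genes and before it in 7. Other assembly factors held the letters in 23 of 96 genes (24%), and cytosolic ribosomal protein genes in 4 of 63 (6.35%). A match is a description of these letters and not a known binding site. In the small nucleolar RNP and PeBoW groups, NOP56, DKC1, NHP2 and WDR12 had a window without the letters. The windows below are the matches of these groups, with GNL3 and UTP14A because their levels stood out in comparisons described further on. Each is written 5′ to 3′ on the gene's strand, with CACGTG in capitals.
FBL (chr19:39846356-39846385, minus strand): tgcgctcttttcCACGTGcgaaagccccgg
GAR1 (chr4:109815781-109815810, plus strand): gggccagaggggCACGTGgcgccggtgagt
NOP10, near the start (chr15:34343130-34343159, minus strand): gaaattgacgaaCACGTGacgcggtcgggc
NOP10, farther upstream (chr15:34343289-34343318, minus strand): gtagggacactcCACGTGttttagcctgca
PES1 (chr22:30591880-30591909, minus strand): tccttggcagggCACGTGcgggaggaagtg
GNL3 (chr3:52686026-52686055, plus strand): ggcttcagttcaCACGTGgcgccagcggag
UTP14A (chrX:129905914-129905940, plus strand): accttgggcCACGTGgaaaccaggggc
Among the 20 genes, NOP10 and EBNA1BP2 held the letters at 2 places, within 1 window for NOP10. In the printed windows the bases around the core differed from gene to gene.

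The 51 genes spanned a wide range of levels, shown in the plot of FPKM by library. Their FPKM ran from 3.14 to 255.2 in Huh-7 empty vector, with a median of 17.02, and from 5.54 to 292.0 in PLC/PRF/5 control, with a median of 23.9. The median over all genes at 1 FPKM or more was 5.76 and 5.87 in these libraries. Summed, the 51 genes made up 0.565% of all FPKM in empty vector, 0.584% in overexpressing, 0.670% in control and 0.652% in knockdown cells. NPM1, NCL and NOP10 alone held 32.9% to 38.6% of that sum. The order of the levels was much alike in the 2 lines, with a Spearman rho of 0.888 across the 51 genes between the untreated libraries, a description across genes that share the same 2 libraries.

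**Figure D1:**
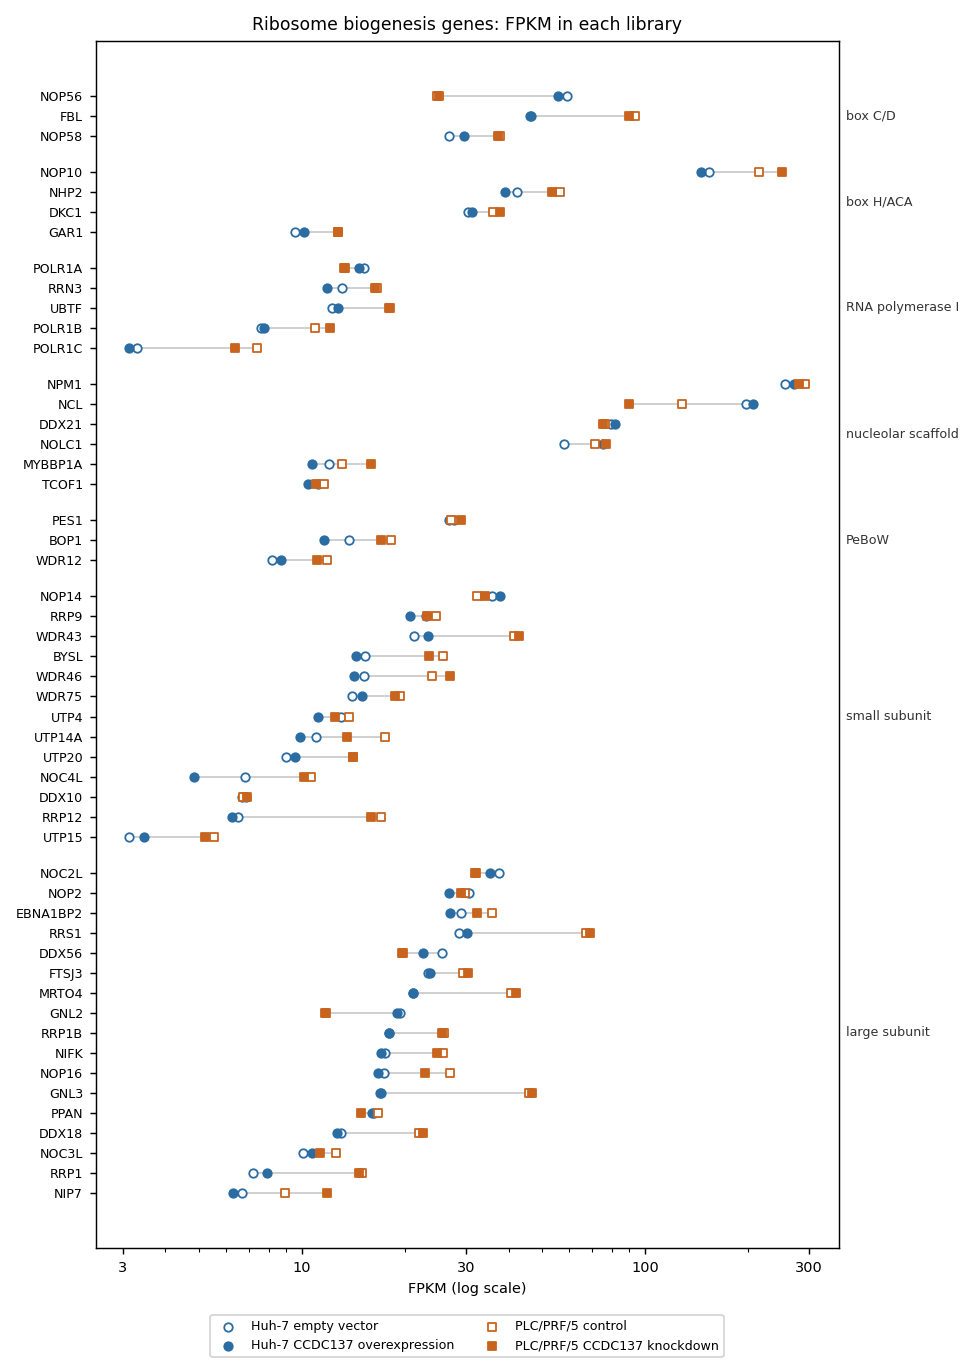
FPKM (log axis) of each of the 51 genes in the 4 libraries, grouped by role. Circles are Huh-7 and squares PLC/PRF/5, open for untreated and filled for treated cells, with 1 library per symbol and no error bar. Open and filled symbols of a line mostly sit together, while circles and squares are set apart for many genes, such as GNL3 at 17.02 and 45.8 FPKM.

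Overexpression of CCDC137 in Huh-7 left this set nearly level. Of the 51 genes, 22 were higher and 29 lower, with a median log2 difference of -0.03, computed as log2((FPKM + 1)/(FPKM + 1)) of treated against control. With both libraries scaled to the same FPKM sum, 27 were higher and the median was 0.0049, so the direction of this median flipped. The same scaling put the median of all genes at 0.045, so the members' median stayed below it. Unscaled, over all 12255 genes at 1 FPKM or more in either library the median was 0.01, and 53.6% were higher. No member differed by 1.5-fold, 0 higher and 0 lower, where 3.22% and 2.99% of all these genes did. A looser call of 0.32 in log2 took 1 higher and 1 lower, beside 8.85% and 7.87% of all genes. At a fold of 2 the count was 0, beside 2.15% of all genes in either direction. The ratio to the empty vector lay within 1.1-fold for 40 of the 51 genes (78.4%), against 45.1% of all 12255 genes and 54.3% of the 6788 genes at 5 FPKM or more. The share of all genes was thus larger at the higher cut, and none was computed at the members' own levels. In these bulk libraries, fewer cells that express a gene and less RNA per cell cannot be told apart.

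NOLC1 and NOC4L were the members past 0.32 in log2 on overexpression. NOLC1, a chaperone of small nucleolar RNPs also known as Nopp140, was at 57.8 and 75.2 FPKM in Huh-7, a log2 difference of 0.37. In PLC/PRF/5 it was at 71.6 and 77.1 FPKM. It was thus higher in the treated library of both lines, although CCDC137 moved in opposite directions. NOC4L, which pairs with NOP14 in small subunit assembly, was at 6.84 and 4.85 FPKM, a log2 difference of -0.42, and at 10.7 and 10.1 in PLC/PRF/5. Its levels were among the lower ones of the set, where fewer fragments stand behind a value.

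The next members in order differed by less. On the higher side they were NOP58 (0.14), WDR43 (0.13), RRP1 (0.12) and UTP15 (0.10), all as log2 differences. On the lower side they were BOP1 (-0.23), UTP4 (-0.20), NOP2 (-0.19) and DDX56 (-0.17). BOP1 was at 13.7 and 11.6 FPKM, and NOP2, a methyltransferase of the large subunit's ribosomal RNA, was at 30.7 and 26.8. These 8 genes come from different steps, since NOP58 is a small nucleolar RNP protein, UTP4, UTP15 and WDR43 act on the small subunit, and the others on the large subunit.

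Knockdown of CCDC137 in PLC/PRF/5 also left every member within 1.5-fold. Of the 51 genes, 22 were higher and 29 lower, with a median log2 difference of -0.02, beside -0.01 over all 12300 genes, of which 47.8% were higher. Scaled to the same FPKM sum, 16 were higher and the median was -0.042, beside -0.028 over all genes under that scaling. No member passed 1.5-fold, 0 higher and 0 lower, where 3.08% and 2.95% of all genes did. Past 0.32 in log2 there was 1 higher and 2 lower, beside 7.15% and 7.62% of all genes. At a fold of 2 the count was 0, beside 2.3% of all genes in either direction. The ratio to control lay within 1.1-fold for 39 of 51 members (76.5%), against 52.5% of all 12300 genes and 61.6% of the 6818 genes at 5 FPKM or more. Here too the share of all genes was larger at the higher cut, with none computed at the members' own levels.

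NCL had the largest difference of any member on knockdown. It encodes nucleolin, an abundant RNA-binding protein of the nucleolus that acts in ribosomal RNA transcription and processing. NCL (ENSG00000115053) is a minus-strand gene of chromosome 2, at 232318242 to 232348352 in GRCh37. In PLC/PRF/5 its level was 128.1 and 90.0 FPKM, a ratio of 0.703 and a log2 difference of -0.50. In Huh-7 it was at 196.7 and 206.2 FPKM, a log2 difference of 0.07. NCL was therefore lower where CCDC137 was lowered. Its difference where CCDC137 was raised was smaller than the median absolute log2 difference of all genes there, 0.13. NPM1, nucleophosmin, another abundant scaffold protein of the nucleolus, was at 292.0 and 280.3 FPKM on knockdown, and at 255.2 and 271.0 on overexpression.

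UTP14A and NIP7 were the other members past 0.32 in log2. UTP14A, a component of the small subunit processome, was at 17.4 and 13.5 FPKM in PLC/PRF/5, a log2 difference of -0.35, and at 10.99 and 9.89 in Huh-7, lower in both treated libraries. NIP7, a factor of pre-ribosomal RNA processing, was at 8.94 and 11.8 FPKM, a log2 difference of 0.37, and at 6.67 and 6.28 in Huh-7. After NIP7 the higher members on knockdown were MYBBP1A (0.26), NOP10 (0.22), WDR46 (0.17) and POLR1B (0.13). After NCL and UTP14A the lower ones were NOP16 (-0.23), POLR1C (-0.19), PPAN (-0.16) and EBNA1BP2 (-0.14).

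**Figure D2:**
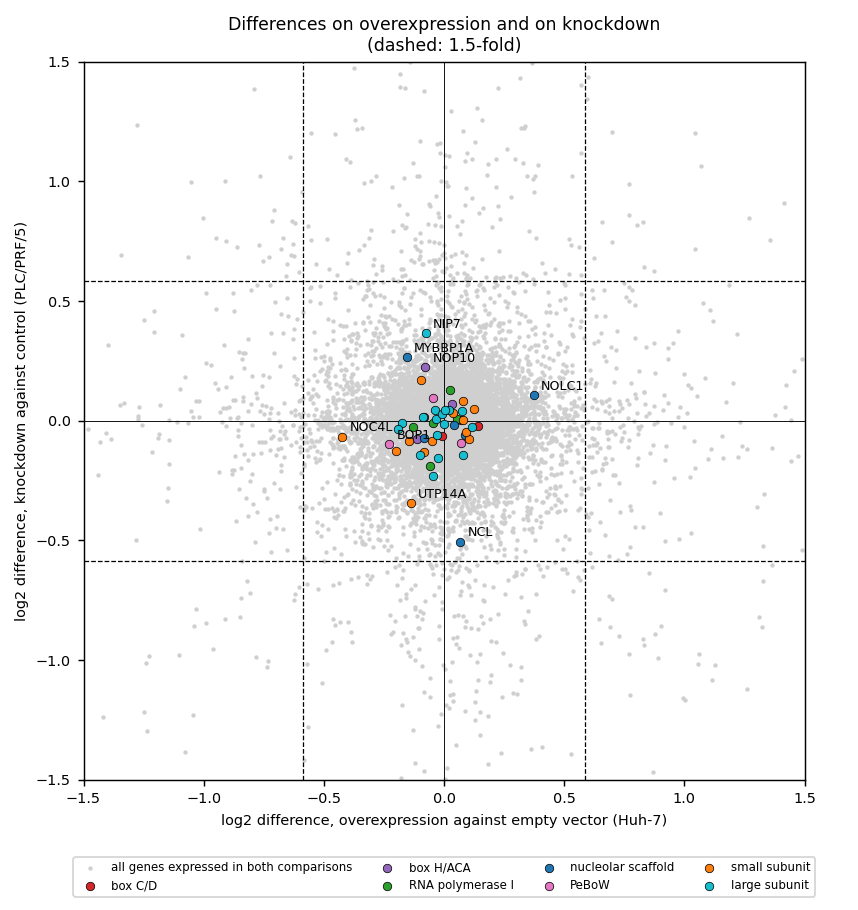
Log2 difference of each gene on overexpression (horizontal axis) against that on knockdown (vertical axis), with the 51 genes coloured by role and 10570 of the 10698 genes expressed in both comparisons in grey; 128 genes lie outside the plotted range. All 51 coloured points lie inside the dashed lines at 1.5-fold, with NCL (-0.50 on knockdown) and NOC4L (-0.42 on overexpression) nearest to them.

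A gene that follows CCDC137 would differ in opposite directions in the 2 comparisons, which share no library. Opposite signs were found in 20 of the 51 members (39.2%), 10 of them higher with overexpression but lower with knockdown, and 10 the reverse, against 48.8% of the 10698 genes expressed in both. Of the rest, 12 members were higher in both treated libraries and 19 lower in both. Among all 10698 genes, 2745 were higher in both and 2735 lower in both. Another 2913 were higher with overexpression but lower with knockdown, and 2305 the reverse. Scaling to the same FPKM sum changed the sign of 5 members on overexpression and 6 on knockdown, so the member counts depend on scaling. No member passed 0.32 in log2 in opposite directions, where 2.35% of all genes did. Across the 51 genes the 2 sets of log2 differences had a Pearson r of 0.08 and a Spearman rho of 0.19, a description only.

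By role, the medians of the 7 groups ran from -0.05 to 0.05 on overexpression and from -0.09 to 0.04 on knockdown. The box C/D proteins carry the guide RNAs for ribose methylation of ribosomal RNA, and FBL, fibrillarin, is their methyltransferase. FBL was at 46.5 and 46.2 FPKM in Huh-7, and at 93.7 and 89.6 in PLC/PRF/5. NOP56 was at 59.3 and 55.9, and at 24.8 and 25.1. NOP58, its partner in the core, was at 26.7 and 29.6, and at 37.8 and 37.2. The 3 box C/D genes thus stayed within 0.14 in log2 on either treatment.

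The box H/ACA proteins guide pseudouridylation, and DKC1, dyskerin, is the catalytic subunit, which also binds telomerase RNA. DKC1 was at 30.6 and 31.3 FPKM in Huh-7, and at 36.1 and 37.9 in PLC/PRF/5. NHP2 was at 42.3 and 39.01, and at 56.5 and 53.5. These 2 and GAR1 held close to their controls. GAR1, at 9.56 and 10.1 and at 12.7 and 12.8 FPKM, was the least abundant of the 4 in every library. NOP10, which encodes a very small protein of the same core, was the most abundant, at 154.0 and 145.9, and at 214.7 and 251.0. The highest level of these 4 genes was 16.1 times the lowest in empty vector and 16.9 times in control cells, although their proteins share a complex.

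Genes of RNA polymerase I transcription were at moderate levels. POLR1A, the largest subunit, was at 15.2 and 14.7 FPKM in Huh-7, and at 13.4 and 13.3 in PLC/PRF/5. POLR1B, the other large catalytic subunit, was at 7.62 and 7.77, and at 10.9 and 12.03. POLR1C, a subunit shared with RNA polymerase III, was at 3.31 and 3.14, and at 7.40 and 6.38. Only POLR1C and POLR1B moved by more than 0.1 in log2 on knockdown among these 5. RRN3, which brings the polymerase to its promoter, was at 13.1 and 11.9, and at 16.6 and 16.3. UBTF, the upstream binding factor that keeps ribosomal DNA open, was at 12.3 and 12.7, and at 17.9 and 18.0. The group's median log2 difference was -0.04 on overexpression and -0.01 on knockdown.

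PES1, BOP1 and WDR12 form PeBoW, a complex needed for the large subunit. PES1 was at 27.8 and 26.9 FPKM in Huh-7, and at 27.1 and 29.1 in PLC/PRF/5. BOP1 was at 18.2 and 16.9 in PLC/PRF/5, beside the Huh-7 values above. WDR12 was at 8.20 and 8.66, and at 11.8 and 11.05. The order PES1, BOP1, WDR12 was the same in all 4 libraries.

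The scaffold group held NCL and NOLC1, described above. DDX21, a helicase that coordinates ribosomal RNA transcription and processing, was at 79.6 and 81.8 FPKM in Huh-7, and at 76.2 and 75.2 in PLC/PRF/5. TCOF1, treacle, mutated in Treacher Collins syndrome, was at 11.1 and 10.4, and at 11.6 and 10.96. MYBBP1A, a nucleolar protein that binds MYB and p53, was at 12 and 10.7, and at 13.05 and 15.9. The 6 log2 differences ran from -0.15 to 0.37 on overexpression and from -0.50 to 0.26 on knockdown.

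The 13 small subunit factors had a median log2 difference of -0.05 on overexpression, with 6 higher and 7 lower, and of -0.07 on knockdown, with 5 higher and 8 lower. They include the UTP and WDR proteins of the small subunit processome, RRP9, a protein of the U3 small nucleolar RNP, BYSL, which stays with late small subunit precursors, and the helicase DDX10. Apart from NOC4L and UTP14A, none of them passed 0.32 in log2. The 17 large subunit factors had medians of -0.03 and -0.01, with 6 higher and 11 lower, then 8 higher and 9 lower. Among them GNL2 and GNL3 are nucleolar GTPases, of which GNL3 is nucleostemin, RRS1 and EBNA1BP2 act on early precursors, and MRTO4 holds the place of the stalk protein. NIFK binds the Ki-67 protein. MKI67, the gene of Ki-67, was at 25.05 and 49.5 FPKM in Huh-7 and at 30.1 and 25.4 in PLC/PRF/5, whereas NIFK was at 17.4 and 17.03, and at 25.8 and 24.8.

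Among related genes outside the set, few passed a fold of 1.5. Of 112 other assembly factors, 111 reached 1 FPKM in each comparison, with 50 higher and 61 lower on overexpression (median -0.01) and 51 higher and 60 lower on knockdown (median -0.01). Past a fold of 1.5 there was 1 higher (0.9%) and 0 lower on overexpression, and 1 higher and 1 lower (0.9% each) on knockdown. Over all genes the shares higher and lower were 3.22% and 2.99% on overexpression, and 3.08% and 2.95% on knockdown. The factors past this fold were exosome subunits and a polymerase subunit. EXOSC2 was at 6.86 and 11.3 FPKM on overexpression, and EXOSC3 at 7.17 and 11.4 on knockdown. CD3EAP, now named POLR1G, was at 13.6 and 6.75 FPKM on knockdown, and at 2.98 and 2.56 on overexpression. Cytosolic ribosomal protein genes had 24 of 79 higher (30.4%) on overexpression, with a median of -0.03, where 53.6% of all genes were higher. Scaling to the same FPKM sum moved the members by up to 0.036 on overexpression, more than the size of this median. The direction there could thus change with scaling, which was not run on these genes. On knockdown 24 of 79 (30.4%) were again higher, with a median of -0.05, where the share of all genes was 47.8%. Past a fold of 1.5 these held RPS3 on overexpression (65.3 and 105.9 FPKM) and RPL32 on knockdown (100.9 and 66.0). Each was 1 of 79 genes (1.27%), also below the shares of all genes.

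**Figure D3:**
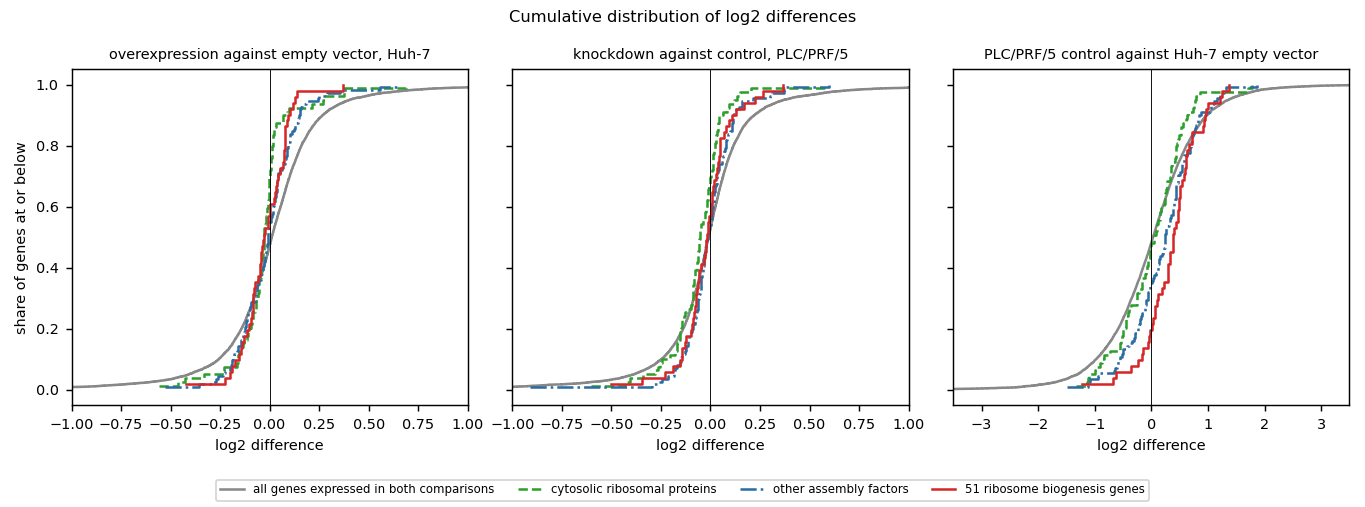
Share of genes (vertical axis) with a log2 difference at or below the value on the horizontal axis. Curves are for the 51 genes, 112 other assembly factors (111 on overexpression and on knockdown), 79 cytosolic ribosomal protein genes and the 10698 genes expressed in both comparisons. On overexpression and knockdown the curve of the 51 genes is steep around 0 (medians -0.03 and -0.02). Between the untreated lines it lies to the right of that of all genes (median 0.38). Over the 13304 genes at 1 FPKM or more in either untreated library, a different set from the one drawn, the median was 0.04.

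MYC itself was at 10.8 and 11.1 FPKM in Huh-7, and at 15.4 and 19.4 FPKM in PLC/PRF/5. MYCN, a relative of MYC, was at 9.69 and 11.9 FPKM in Huh-7 and listed at 0 in PLC/PRF/5 control. MXD1, which pairs with MAX and opposes MYC, was at 1.24 and 2.40 FPKM in Huh-7, and at 1.35 and 0.934 in PLC/PRF/5. It was the only regulator of 10 past a fold of 1.5 in Huh-7, where 3.22% of all genes were called higher. Its log2 difference of 0.60 was just past the call of 0.58, at levels near the filter of 1 FPKM. The 20 members with the E-box letters in a window had median log2 differences of -0.04 on overexpression and 0.0029 on knockdown. The 23 members with a window but without the letters had -0.02 and -0.03, so both groups stayed near 0.

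The larger differences in this set were between the lines. The control libraries come from separate tables and differ in line, medium and vector at once, which cannot be told apart. Of the 51 genes, 41 were higher in PLC/PRF/5 control than in Huh-7 empty vector and 10 lower, with a median log2 difference of 0.38. Over all 13304 genes the median was 0.04, and 51.9% were higher. Past a fold of 1.5 there were 15 members higher (29.4%) and 3 lower (5.88%), against 26.3% and 24.1% of all genes. The share called higher was therefore near the background, and the share called lower stood below it. The difference between untreated lines exceeded both treatment differences in 42 of 51 members (82.4%), as it did in 76.8% of all genes.

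GNL3, nucleostemin, had the largest difference between the lines, at 17.02 FPKM in Huh-7 empty vector and 45.8 in PLC/PRF/5 control, a ratio of 2.69. In the treated libraries it was at 16.9 and 46.7. RRP12, which acts in pre-ribosome maturation and export, was at 6.52 and 16.9, and RRS1, a factor of early large subunit precursors, at 28.6 and 67.4. FBL (46.5 and 93.7) and POLR1C (3.31 and 7.40) came next. In all 5 of these genes both PLC/PRF/5 libraries lay above both Huh-7 libraries. The genes were picked by the untreated difference, so this order is a description and not a check.

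The opposite order was found for a smaller group. NOP56 had 59.3 FPKM in Huh-7 empty vector and 24.8 in PLC/PRF/5 control, a ratio of 0.418, although FBL and NOP58 of the same box C/D core were higher in PLC/PRF/5. GNL2 was at 19.3 and 11.6, and NCL at 196.7 and 128.1. DDX56 (25.5 and 19.7) and NOC2L (37.5 and 31.9), both of the large subunit pathway, followed. In each of these 5 genes both PLC/PRF/5 libraries lay below both Huh-7 libraries, again a description of genes picked by the untreated difference.

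In each of the 7 role groups more genes were higher than lower in PLC/PRF/5 control. The box C/D and PeBoW groups each had 2 of 3 higher (medians 0.49 and 0.38). The 13 small subunit factors had 12 higher in PLC/PRF/5 (median 0.59), all 4 box H/ACA genes were higher (median 0.39), and so were 4 of 5 RNA polymerase I genes (median 0.47). The 17 large subunit factors had 13 higher (median 0.37), whereas the 6 scaffold genes had 4 higher and a median of 0.08. Other assembly factors had 73 of 112 higher (median 0.24), and cytosolic ribosomal protein genes 41 of 79 (median 0.05). In the treated libraries, PLC/PRF/5 knockdown against Huh-7 overexpression, 42 of the 51 were higher, against 50.2% of all genes, with a median of 0.41. The sign was higher in both pairs of libraries for 40 members (78.4%), against 44.5% of all genes, and lower in both for 8. Members with the E-box letters had a median of 0.34 between the untreated lines and those without 0.37. Hepatocyte genes went the other way, with 7 of 9 lower in PLC/PRF/5 control and a summed level of 2905 FPKM in Huh-7 empty vector against 1371. The 7 differed unevenly, from ALB at 1084 and 2.15 FPKM and AFP at 419 and 90.8 to FGB at 244 and 214. The part of the hepatocyte genes in the difference was not tested.

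**Figure D4:**
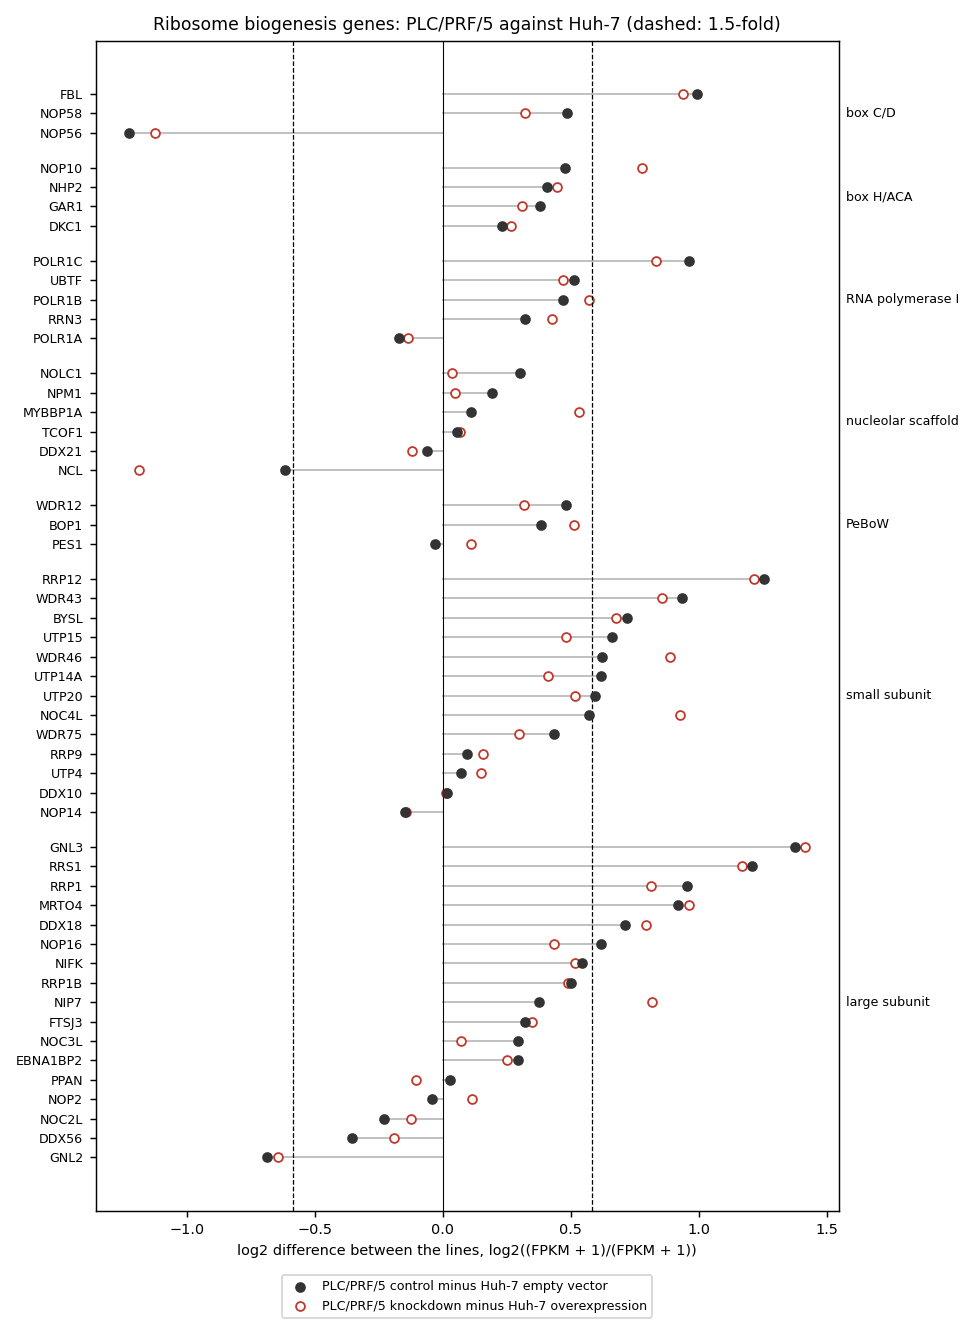
Log2 difference of PLC/PRF/5 against Huh-7 (horizontal axis) for each of the 51 genes, grouped by role, with filled points for the untreated and open points for the treated libraries, 1 library per line and condition. Most points lie right of 0, 41 of 51 for the untreated pair, while NOP56, GNL2 and NCL lie left of the dashed line at 1.5-fold.

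The genes also share features in the annotation. In the deposited tables, 47 of the 51 carry the gene ontology term for the nucleolus and 31 that for ribosomal RNA processing. In the GRCh37 annotation, 8 members (15.7%) hold a small nucleolar or Cajal body RNA within the gene on the same strand, against 2.43% of 13704 annotated genes at 1 FPKM in any library. They are NOP56, NOP58, DKC1, POLR1C, NCL, WDR43, GNL3 and PPAN, and their log2 differences on treatment ran from NCL at -0.50 on knockdown to NOP58 at 0.14 on overexpression. BOP1 was not matched in that annotation. Exons of 3 members (5.88%), NOP2, PPAN and RRS1, overlapped another gene on the same strand, against 18% of the 13704 genes, so their reads could be given to that gene. The readthrough gene PPAN-P2RY11 had 0.553 FPKM in empty vector and 0.623 in control cells and listed at 0 in both treated libraries, beside 16.3 and 16.0, and 16.6 and 14.8 FPKM for PPAN.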

How the data were processed

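The authors deposited FPKM per gene and library. Per the submitters' notes, reads were handled with cutadapt, HISAT2 2.0.4 and then StringTie 1.3.4d. Build, annotation and strand setting: not given in the sources used here. Counts of reads were not used here, and with unknown depth no interval was set. The deposited tables also hold the authors' folds, log2 folds, p-values and q-values, which were not used. A listed 0.0001 was taken as 0. Differences are log2((FPKM + 1)/(FPKM + 1)) for genes at 1 FPKM or more in either library, without rescaling, and a fold of 1.5 was the call. FPKM are relative to each library, so a change of all mRNAs together is not seen. Groups were taken from sample titles. Alternatives were a pseudocount of 0.1, other filters (none, 5 FPKM), 2 rescalings and calls of 0.32 in log2 and of a fold of 2. The members, lists and naming rule were chosen with earlier results of these data known. The rule named CCDC137, MYC, all box C/D, box H/ACA, PeBoW and RNA polymerase I members, the 5 largest differences each way in each comparison and, of related lists, the largest differences, given here where past a fold of 1.5. Other members, MYCN, MKI67 and PPAN-P2RY11 were added for their role, after their values were seen. Positions come from GENCODE release 44 lifted to GRCh37, and promoters from RefSeq on GRCh38.p14; the files' own build may differ. The calculation was tested on simulated data, with folds of 2 planted in abundant genes under little noise. That checked the code and not the reliability of calls in these libraries. Python 3.11.15, numpy 2.4.6, pandas 2.3.3, scipy 1.17.1 and matplotlib 3.10.9 were used.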

Additional observations from a re-analysis of the deposited data

How the results depend on the processing

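With 1 library per group, no replicate could be left out. No paired analysis was possible because each group has a single library. Setting the median log2 ratio of expressed genes to 0 gave a median of -0.043 on overexpression, -0.0083 on knockdown and 0.35 between the lines. Scaling to the same FPKM sum gave 0.0049 on overexpression, the opposite sign, and -0.042 on knockdown. Under that scaling the medians of all genes were 0.045 and -0.028. A call of 0.32 in log2 took 1 member higher and 1 lower on overexpression, and 1 higher and 2 lower on knockdown, where a fold of 1.5 called 0; a fold of 2 also called 0. A pseudocount of 0.1 FPKM gave 0.42 between the lines, and the treated libraries, an alternative chosen after seeing the data, gave 0.41. Scaling changed the sign of 5 members on overexpression and 6 on knockdown at most. The filters on low values left the members' medians on overexpression and knockdown as they were, while the median of all genes on overexpression was 0.015 in the main values, 0.0074 with no filter and -0.0028 at 5 FPKM, and on knockdown -0.0079, 0.00086 with no filter and -0.010 at 5 FPKM. Depth is unknown, so low levels such as those of UTP15 and POLR1C are the least certain.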
